A study of Mus musculus with 11 samples.

Results

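The genes described here encode the protein parts of the cytosolic ribosome and of the mitochondrial ribosome, measured by RNA sequencing in mouse neurospheres with and without Klf5 overexpression. They were chosen by name: protein-coding genes whose symbols begin with Rpl, Rps, Mrpl or Mrps and a digit, with Rplp0 to Rplp2 and Rpsa, without pseudogenes or the Rps6k kinases. The rule found 164 genes, of which 3 (Rpl3l, Rpl10l and Rpl39l) were listed at 0 in every library. The other 161 were kept, of 53453 gene rows in the table and 13549 genes tested. They comprised 49 genes for the large and 34 for the small subunit of the cytosolic ribosome, and 49 for the large and 29 for the small subunit of the mitochondrial ribosome. All 161 reached 1 TPM in each of the 11 libraries, so none was kept through one group alone. Rps19bp1, which encodes a protein that binds Rps19, and Mrps36, which has also been assigned to a mitochondrial dehydrogenase complex, entered by name.

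Primary neurospheres, balls of neural stem cells and progenitors that grow in suspension, were made from the brain of mouse embryos at E15.5. Control embryos gave 6 libraries and embryos overexpressing Klf5, a zinc-finger transcription factor, gave 5. No treatment was given, and the promoter, construct and cells behind the overexpression, the strain and the nature of the control were not stated in the labels. The labels' protocol counts 6 and 5 embryos, so each library was taken as 1 embryo.

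A ribosome is built from ribosomal RNA and many small proteins, each of which is needed in about equal number, so that their genes are usually expressed together at high level in growing cells. The mRNAs of cytosolic ribosomal proteins start with a run of pyrimidines, the terminal oligopyrimidine (TOP) motif, through which the growth-control kinase mTORC1 regulates their translation via Larp1. Mitochondrial ribosomal proteins are encoded in the nucleus, made in the cytosol and imported. They serve a separate ribosome that translates the few mRNAs of the mitochondrial genome.

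The first bases of these genes are shown because the start of the transcript is the feature the cytosolic members are known for. Promoters from RefSeq (GRCm38.p6, 250 bases before to 50 after the annotated start) matched 132 of the 161 genes. A pyrimidine start, meaning C followed by 4 C or T from the annotated first base, was found in 14 of 63 cytosolic genes (22.2%), in 0 of 69 mitochondrial genes and in 3.01% of the 27025 genes with a promoter in the table. When such a run could begin up to 5 bases before or after the annotated start, the shares were 47.6%, 24.6% and 21.2%. The starts used in these cells were not measured, so the shares describe annotated starts only. The windows below run from 15 bases before the start to 15 bases from it on, on the strand of the gene, with the pyrimidine run in capitals.
Rps6 (chr4:86857353-86857382, minus strand): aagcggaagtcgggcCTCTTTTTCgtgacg
Rps21 (chr2:180257364-180257393, plus strand): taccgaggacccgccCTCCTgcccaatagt
Rps18 (chr17:33955651-33955680, minus strand): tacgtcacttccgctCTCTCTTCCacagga
Rps10 (chr17:27635230-27635259, minus strand): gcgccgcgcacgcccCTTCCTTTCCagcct
Rps15a (chr7:118116133-118116162, minus strand): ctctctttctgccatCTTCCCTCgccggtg
Rpl28 (chr7:4792950-4792979, plus strand): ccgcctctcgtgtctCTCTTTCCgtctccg
Rpl35a (chr16:33056467-33056496, plus strand): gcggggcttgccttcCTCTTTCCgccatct
Rps27 (chr3:90213634-90213663, minus strand): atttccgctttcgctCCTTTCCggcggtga
Rps27rt (chr9:114982725-114982754, minus strand): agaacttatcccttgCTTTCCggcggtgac
Rps27rt is a retrogene, an intronless copy made from the mRNA of Rps27, and the windows of both share a run of 14 bases, which lies at and after their starts.

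Short promoter words were counted in both sets. The core of the sites bound by ETS-family transcription factors, CCGGAAG on either strand, was present in 25 of 63 cytosolic promoters (39.7%) and 26 of 69 mitochondrial ones (37.7%), against 9.93% of all 27025 genes. The YY1 core AAGATGGCG was in 6.35% and 11.6%, against 1.64% of all genes. The GC box GGGCGG was in 63.5% and 49.3%, against 38.2%. The CACCC box CCACACCC, a word of the kind Krüppel-like factors bind, was in 4.76% and 1.45%, against 4.09% of all genes. TATAAA was in 11.1% and 7.25%, against 15.7%. All 5 words were searched on both strands over the same 300 bases, and no word contains another. The 27025 genes include genes too low to be tested, and shares over the tested genes alone were not counted. The 90 bases before the start of 1 cytosolic and 3 mitochondrial genes show where the ETS word (capitals, CTTCCGG on the other strand) lies.
Rps21 (chr2:180257289-180257378, plus strand): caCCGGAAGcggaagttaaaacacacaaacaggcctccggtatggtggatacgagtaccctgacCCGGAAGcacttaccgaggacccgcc
Mrps22 (chr9:98601680-98601769, minus strand): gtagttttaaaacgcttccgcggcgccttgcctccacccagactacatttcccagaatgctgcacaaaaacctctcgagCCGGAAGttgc
Mrpl3 (chr9:105053178-105053267, plus strand): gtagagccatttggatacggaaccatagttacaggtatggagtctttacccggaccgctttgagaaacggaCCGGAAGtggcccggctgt
Mrpl52 (chr14:54426819-54426908, plus strand): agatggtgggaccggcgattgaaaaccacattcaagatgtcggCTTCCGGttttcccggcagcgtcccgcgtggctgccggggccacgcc
A match is a string of letters in this window and no evidence of binding.

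Values are TPM (transcripts scaled for their length and to a nominal total of 1000000 in each library), and sequencing depth is unknown. Klf5 itself lay between 0.371 and 1.29 TPM in controls (median 0.867) and at 93.0, 91.4, 58.7, 82.1 and 53.6 TPM in overexpression libraries 1 to 5, so the labels held in every library. Of the neural stem and progenitor markers, all 8 were measured, with Fabp7 at 2105 ± 553 TPM (SD, n = 5) under overexpression and 3596 ± 1073 TPM (SD, n = 6) in controls. Of these 8, only Vim and Msi1 passed the test described below, and Fabp7 did not. Markers of microglia, endothelial cells and red cells summed to at most 1.99, 1.06 and 0.833 TPM in any library. In bulk RNA, fewer cells of a type and less RNA per cell cannot be told apart. Rows that resemble nuclear ribosomal RNA, led by Gm42418, took 11.0 to 28.3% of the listed TPM of overexpression libraries and 17.7 to 29.6% of that of controls. Listed rows summed to 784942 ± 35448 TPM (SD, n = 5) and 830176 ± 12100 TPM (SD, n = 6), below that total.

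No ribosomal protein gene of either ribosome passed the test between Klf5 overexpression and control neurospheres. By limma with Benjamini-Hochberg adjustment over all 13549 genes at 0.05, 0 of 161 members were called, against 504 genes or 3.72% of all tested. In each direction the background was 2.29% higher and 1.43% lower. Without adjustment 5 members, all mitochondrial and lower, had a p under 0.05, against 12.6% of all genes. That number was 14 without overexpression library 1, 15 with libraries centred on the cytosolic members, 9 after quantile normalization, and 2 when values were rescaled to the TPM outside these genes or no variance trend was used. It was 3 without control library 1, 3 or 4 or overexpression library 2 or 5. The share of all genes with an unadjusted p under 0.05 was not counted in those other fits, so these numbers have no background beside them. The ranges of both groups overlapped for every member, whereas they did not overlap for 3.29% of all genes, 1.99% higher and 1.31% lower.

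The cytosolic ribosomal protein genes centred on no difference. Their median log2 difference was -0.004, with 39 genes above 0 and 44 below, and the range ran from -0.26 (Rps15a) to 0.31 (Rps13). The split changed with the scaling, with 73 of 83 above 0 when values were rescaled to the TPM outside these genes, 59 after trimmed-mean scaling and 30 when libraries were centred on the cytosolic members. It also changed with single libraries, to 18 above 0 without overexpression library 1, 65 without overexpression library 2, 24 without control library 1 and 23 without control library 5. Mitochondrial ribosomal protein genes lay slightly lower, with a median of -0.09, 59 of 78 genes below 0 and a range from -0.44 (Mrpl3) to 0.29 (Mrps36). Over all genes tested the median was -0.04 and 57.6% lay below 0, against 75.6% of the mitochondrial members. These values were not rescaled to the listed total, which averaged 784942 TPM under overexpression and 830176 TPM in controls. The number of mitochondrial genes below 0 changed with the scaling, from 42 when values were rescaled to the TPM outside these genes to 61 when libraries were centred on the cytosolic members. Leaving out overexpression library 1 gave 69, and leaving out overexpression library 5 gave 47. The cytosolic median changed sign with the scaling, at 0.09 when rescaled to the TPM outside these genes, 0.04 after trimmed-mean scaling, 0.03 without rRNA-like, mitochondrial and haemoglobin rows and 0.02 after quantile normalization.

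Intervals were taken gene by gene from the main fit on TPM as deposited. They carry the spread between libraries and no shift from the choice of scaling. The 95% limma interval lay within 0.5 on the log2 scale, a 1.41-fold change, in either direction for 73 of 83 cytosolic and 52 of 78 mitochondrial genes, compared with 39.7% of all genes tested. The median standard error was 0.13 for cytosolic, 0.15 for mitochondrial and 0.18 for all genes. The 10 cytosolic genes with wider intervals included Rps18, Rps13 and Rpl34, which varied between single libraries and are described below.

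**Figure D1:**
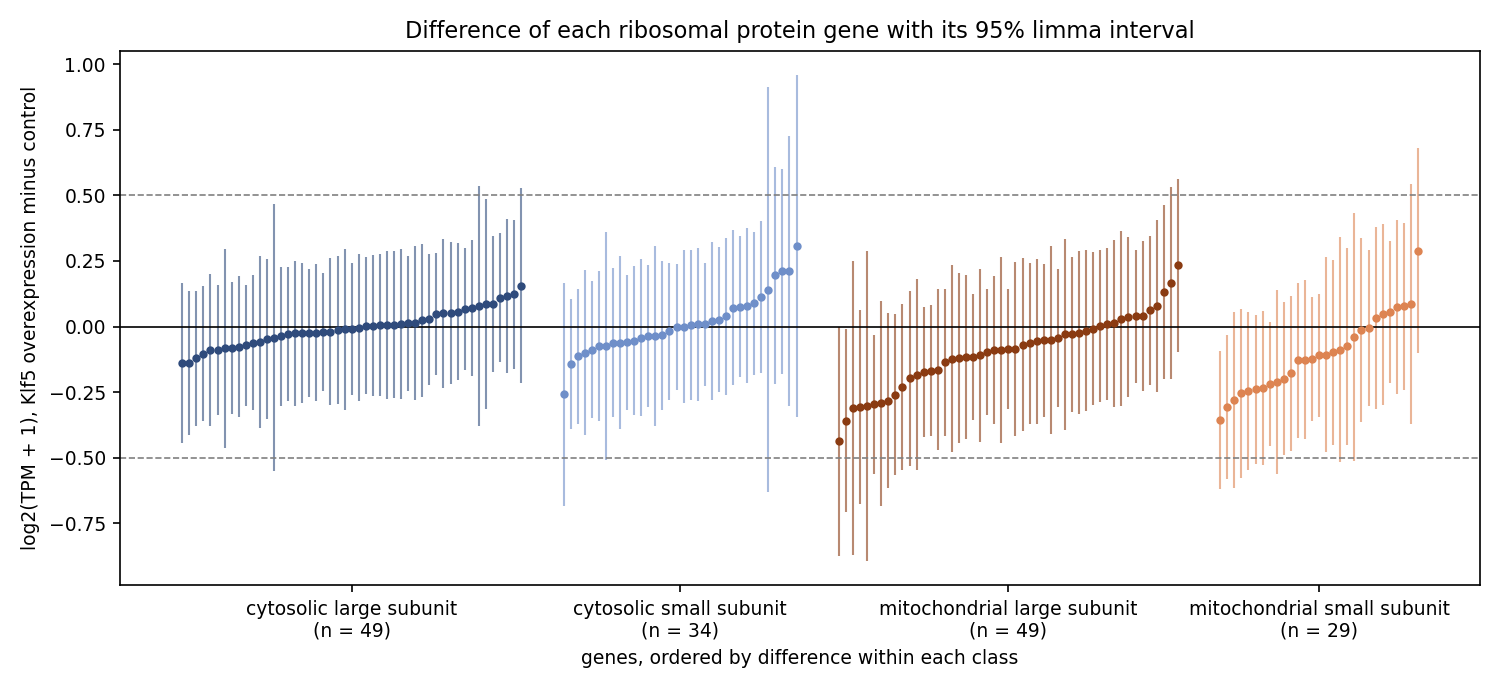
Difference in log2(TPM + 1) between 5 Klf5 overexpression and 6 control libraries (y axis) for each of 161 genes, ordered within 4 classes on the x axis. Points are limma estimates, bars are 95% intervals, and dashed lines mark 0.5 in either direction; cytosolic points centre on 0 (median -0.004) and mitochondrial points lie lower (median -0.09), with 0 genes called.

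Among genes classed by name as cytosolic large-subunit, levels spread from 80.4 TPM (Rpl7l1) to 1988 TPM (Rplp1), with a median of 622 TPM. Rplp1, an acidic protein of the stalk that recruits elongation factors, ranged from 1706 to 2346 TPM in controls (median 1942) and measured 2419, 1662, 1971, 2183 and 1770 TPM in overexpression libraries 1 to 5. The overexpression values enclosed the control range, with a difference of 0.01 ± 0.14 (log2, SE). Rpl8, a protein of the large subunit near its catalytic centre, ranged from 1451 to 1736 TPM in controls (median 1644) and measured 1946, 1248, 1709, 1843 and 1476 TPM, a difference of 0.00 ± 0.13.
The smallest p-values of this class belonged to Rpl10a and Rpl28, both of the large subunit. Rpl10a was at 670.5 ± 65.0 TPM (SD, n = 6) in controls and 615 ± 120 TPM (SD, n = 5) under overexpression, with an adjusted limma p of 0.804. Rpl28 was at 538 ± 43.5 and 498 ± 79.6 TPM, with an adjusted limma p of 0.823, and its gene overlaps Ube2s.

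Cytosolic small-subunit genes ran from 48.4 TPM (Rps19bp1) to 1924 TPM (Rps2), with a median of 743 TPM. Rps2, which lines the mRNA entry side of the small subunit, ranged from 1703 to 2123 TPM in controls (median 1941) and measured 2316, 1493, 2018, 2181 and 1670 TPM under overexpression. Its difference was 0.00 ± 0.14 with an interval from -0.29 to 0.29, and its introns host Snora64 and Snora78. Rps15 was at 1621 ± 176 TPM (SD, n = 6) in controls and 1560 ± 237 TPM (SD, n = 5) under overexpression. Rps24 was at 1030 ± 77.4 and 936 ± 123 TPM, a difference of -0.14 ± 0.12 with an adjusted limma p of 0.744.
Rps6, the small-subunit protein that is phosphorylated downstream of mTORC1, ranged from 725 to 894.5 TPM in controls (median 839) and measured 953, 739, 847, 875 and 715 TPM under overexpression. Both groups covered the same levels, and the difference was 0.00 ± 0.11. Rps21, shown above with its pyrimidine start and 2 ETS words, was at 733 ± 99.2 TPM (SD, n = 6) and 747 ± 104 TPM (SD, n = 5), a difference of 0.03 ± 0.13.

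Paralogs, which encode relatives of a ribosomal protein, were also without a call. Rpl22l1, the counterpart of Rpl22, ranged from 195 to 389 TPM in controls (median 226) and measured 371, 241, 244.8, 288 and 235.06 TPM under overexpression. Its difference, 0.16 ± 0.18 with an adjusted limma p of 0.854, was the highest of the large-subunit class, and control library 2 alone supplied the highest value of all. Rps27l, a p53-induced relative of Rps27, was at 358 ± 50.1 TPM (SD, n = 6) and 389 ± 77.0 TPM (SD, n = 5). Rpl36al was at 297 ± 30.03 and 327 ± 70.0 TPM, Rpl7l1 at 80.8 ± 5.39 and 79.9 ± 8.99 TPM, and Rps27rt at 90.8 ± 22.7 and 87.2 ± 27.5 TPM. The Rps27rt row shares coding sequence with Rps27, so reads could be split between them.

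Genes mutated in Diamond-Blackfan anaemia, a red-cell failure caused by loss of 1 copy of a ribosomal protein gene, are 19 of the cytosolic members. None was called, 7 lay above and 12 below 0, and the median was -0.04. The extremes were Rps15a at -0.26 ± 0.20 and Rps19 at 0.21 ± 0.24.

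Mitochondrial members were expressed at a lower level per length than cytosolic ones: the median over genes was 34.5 TPM, against 660 TPM for cytosolic genes. Among large-subunit genes Mrpl42 was highest, at 101 ± 14.6 TPM (SD, n = 6) in controls and 98.1 ± 22.9 TPM (SD, n = 5) under overexpression, and Mrpl52 followed with 95.3 ± 27.5 and 90.3 ± 15.3 TPM. Mrpl35 was lowest, at 9.17 ± 0.809 and 8.49 ± 1.92 TPM. Among small-subunit genes Mrps21 led with 121 ± 12.6 and 112 ± 11.5 TPM, then Mrps6 with 113 ± 18.7 and 99.6 ± 18.4 TPM, while Mrps25 was lowest with 9.01 ± 1.67 and 8.54 ± 1.87 TPM. The groups overlapped for each of these 6 genes.

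Mrps22, a small-subunit protein, came closest to a call. It ranged from 32.4 to 42.6 TPM in controls (median 37.9) and measured 34.3, 24.0, 29.4, 30.4 and 27.5 TPM in overexpression libraries 1 to 5. Only overexpression library 1 reached into the control range, and all 5 lay below the control mean of 37.5 ± 4.03 TPM (SD, n = 6). The difference was -0.36 ± 0.12 (interval -0.62 to -0.09) with an adjusted limma p of 0.172. It passed under 4 of 12 other settings with all or blocked libraries, with adjusted limma p-values of 0.036 after trimmed-mean scaling, 0.0312 after quantile normalization, 0.0268 without rRNA-like, mitochondrial and haemoglobin rows, and 0.0184 centred on the cytosolic members. Over all 24 alternatives Mrps22 was the only member called in any.

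The other members with an unadjusted p under 0.05 were Mrpl12, Mrps16, Mrpl13 and Mrpl3. Mrpl12, a large-subunit stalk protein also reported to bind the mitochondrial RNA polymerase, ranged from 70.4 to 90.8 TPM in controls (median 80.1) and measured 70.95, 55.8, 71.0, 76.8 and 52.8 TPM under overexpression, a difference of -0.30 ± 0.12 with an adjusted limma p of 0.299. Overexpression libraries 1, 3 and 4 lay within the control range. Mrps16, of the small subunit, ranged from 16.2 to 22.03 TPM in controls (median 19.7) and measured 14.98, 15.2, 18.8, 14.02 and 15.3 TPM, a difference of -0.31 ± 0.13 with an adjusted limma p of 0.313. Here overexpression library 3 stood with the controls, and control library 6 was the lowest control.
Mrpl13 was at 26.3 ± 5.33 TPM (SD, n = 6) and 20.2 ± 3.86 TPM (SD, n = 5), with an adjusted limma p of 0.375. Mrpl3 took high and low levels among the controls, which ran from 21.1 to 41.4 TPM (median 32.3), and measured 29.9, 18.9, 27.2, 16.8 and 21.8 TPM under overexpression, with an adjusted limma p of 0.398. Mrps36 and Mrpl57 had the highest differences, 0.29 ± 0.18 and 0.23 ± 0.16, with adjusted limma p-values of 0.626 and 0.655.

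Summed over genes, cytosolic ribosomal protein mRNA made up 7.60% ± 0.541 (SD, n = 6) of the listed TPM in controls and 8.08% ± 0.982 (SD, n = 5) under overexpression. Control libraries ranged from 55990 to 69172 TPM (median 64252), and overexpression libraries 1 to 5 held 75777, 51347, 64087, 69194 and 57541 TPM. Both the highest and the lowest sum therefore came from overexpression libraries, 1 and 2. The rRNA-like rows took the opposite order at these ends: 11.0% of the listed TPM in overexpression library 1 and 28.3% in overexpression library 2, with the lowest control sum in control library 5, where they took 29.6%. With the rRNA-like rows left out of the total, the cytosolic share was 9.78% ± 0.188 (range 9.53 to 10.1) in controls and 10.1% ± 0.537 (range 9.27 to 10.7) under overexpression. The coefficient of variation of the share was 7.11% with and 1.93% without the rRNA-like rows in controls, and 12.2% and 5.32% under overexpression.

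Mitochondrial ribosomal protein mRNA made up 0.385% ± 0.021 (SD, n = 6) of the listed TPM in controls and 0.382% ± 0.0415 (SD, n = 5) under overexpression. Without the rRNA-like rows the shares were 0.496% ± 0.0138 (range 0.485 to 0.523) and 0.477% ± 0.0116 (range 0.462 to 0.492). Of the overexpression libraries, only library 1 reached the control range on that scale. The ratio of cytosolic to mitochondrial TPM, which does not depend on the library total, ran from 18.7 to 20.4 in controls (median 19.7) and was 21.0, 19.7, 21.5, 21.3 and 22.2 in overexpression libraries 1 to 5. Overexpression libraries 1, 3, 4 and 5 thus lay above all controls, and overexpression library 2 lay among them. This ratio was not tested, and no ratios of other gene sets were set beside it.
Within each ribosome, the ranges of the small-to-large ratio of summed TPM overlapped between groups. The ratio of cytosolic genes ran from 0.722 to 0.772 in controls and from 0.735 to 0.792 under overexpression. Overexpression libraries 1 and 4, at 0.792 and 0.776, lay above all controls, and the others lay within the control range. The ratio of mitochondrial genes ran from 0.525 to 0.599 and from 0.523 to 0.565. Neither ratio was tested.

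**Figure D2:**
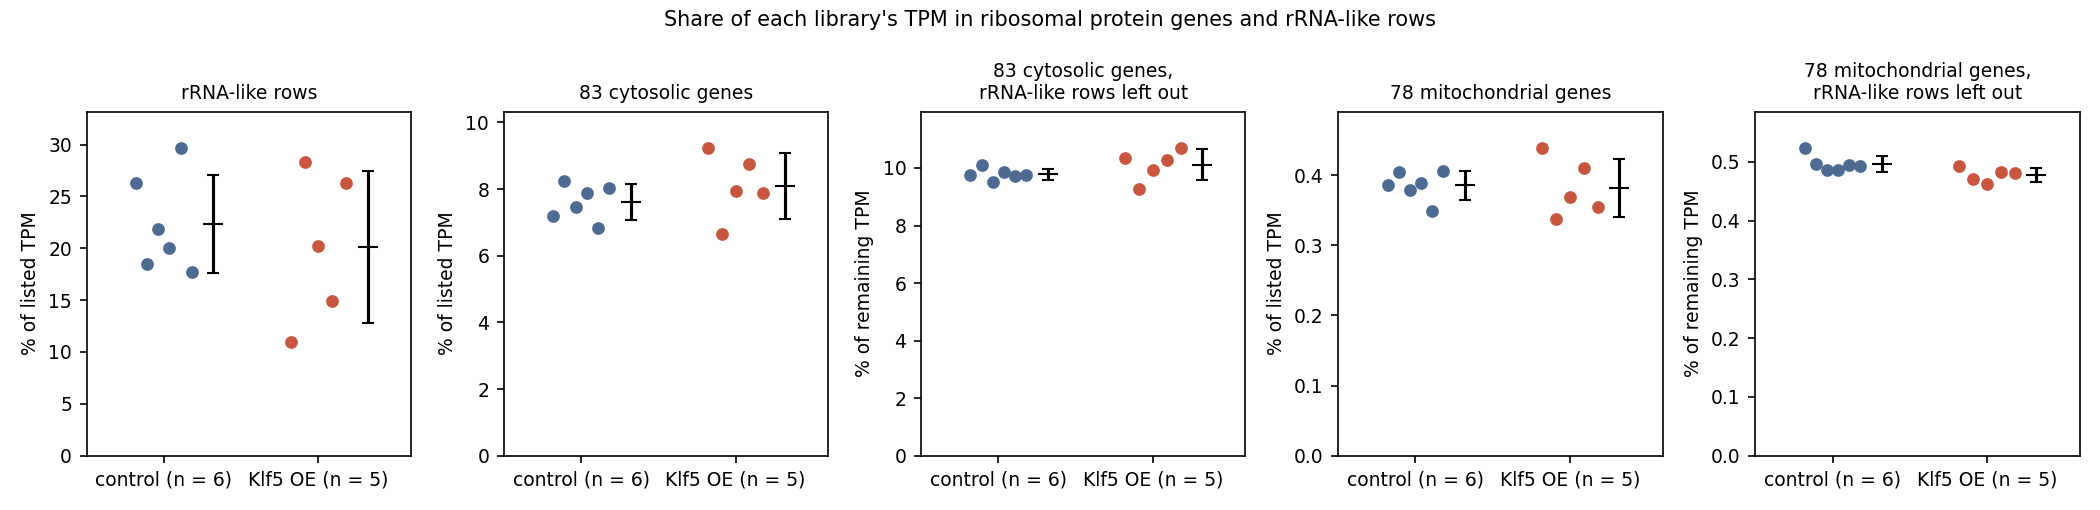
Share of each library's TPM (y axis, %) in rRNA-like rows, in the 83 cytosolic and in the 78 mitochondrial ribosomal protein genes, before and after leaving out rRNA-like rows, for 6 control and 5 Klf5 overexpression libraries. Points are libraries and bars are mean and SD; the spread of the cytosolic share narrowed without the rRNA-like rows (9.53 to 10.1% in controls).

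The cytosolic genes moved up and down together from library to library. In overexpression library 1, 82 of 83 lay above the mean of their own group, and in overexpression library 2 only 4 did. Controls behaved alike, with 71, 69 and 70 genes above the control mean in control libraries 2, 4 and 6, and 12, 31 and 5 in control libraries 1, 3 and 5. Mitochondrial members followed in the overexpression group, with 74 of 78 above the mean in library 1, 10 in library 2, 47 in library 3, 61 in library 4 and 7 in library 5. In controls they ranged from 16 to 53 of 78. Such counts were not made over all tested genes, so the movement is not shown to be particular to ribosomal protein genes.
The median within-group SD of log2(TPM + 1) was 0.198 for cytosolic, 0.238 for mitochondrial and 0.294 for all tested genes. It dropped to 0.115, 0.190 and 0.264 once rRNA-like rows were left out of the total, so the cytosolic genes lost more spread than the genes at large. Centring each library on its median cytosolic level gave 0.101, 0.192 and 0.266. The cytosolic value is lowered by construction there, since the centring uses these same genes.

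**Figure D3:**
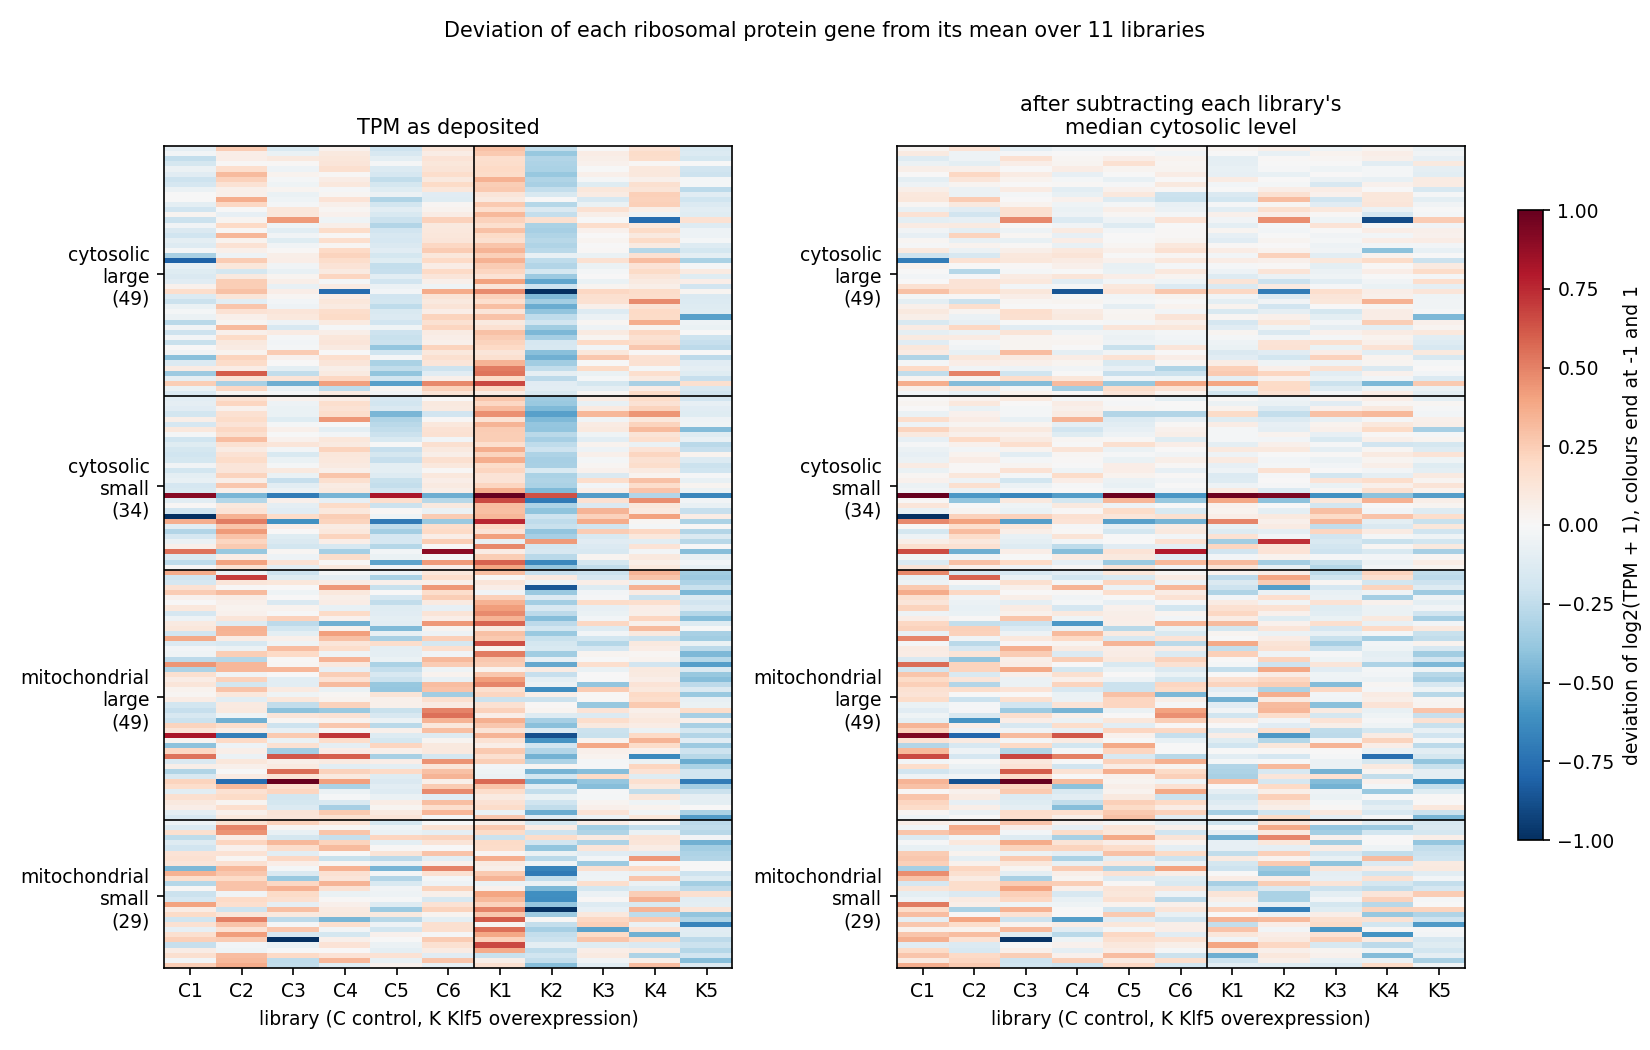
Deviation of log2(TPM + 1) of each of 161 genes (rows, in 4 classes ordered by level) from its mean over 11 libraries (columns, C control and K Klf5 overexpression), as deposited (left) and after subtracting the median cytosolic level of each library (right). Whole columns shade together on the left, with 82 of 83 cytosolic genes above their group mean in K1 and 4 in K2, while single genes such as Rps18 and Rps13 remain on the right.

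A few cytosolic genes departed from this common movement, in libraries of either group. Rps18, a small-subunit head protein, had the largest spread of all members, with a within-group SD of 0.82 after centring. It was at 1164 and 1089 TPM in control libraries 1 and 5 and at 1473 and 962 TPM in overexpression libraries 1 and 2. In the other 7 libraries it lay between 381 and 505 TPM, so both groups held high and low embryos with no value between. Rps13, a small-subunit protein whose introns host Snord14a, was at 160.5 TPM in control library 1 and between 494 and 755 TPM in the other 10 libraries. Over the other libraries the ranges overlapped, 552 to 724 TPM in controls and 494 to 755 TPM under overexpression. Rpl6, of the large subunit, was also lowest in control library 1, at 351 TPM against 496 to 782 TPM elsewhere.
Rps15a, the lowest cytosolic difference, ranged from 264 to 639 TPM in controls (median 343) and measured 363, 307, 308, 337 and 255.7 TPM under overexpression. Its control spread came from control libraries 1 and 6, at 501 and 639 TPM. Rps10 ranged from 539 to 741 TPM in controls (median 617) and measured 1039, 402, 734, 910 and 642 TPM. Rps25 was at 511 TPM in overexpression library 2 and at 313 to 359 TPM in the other overexpression libraries, although library 2 was the one with 4 of 83 cytosolic genes above the group mean.

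Ribosomal protein genes have many processed pseudogenes, and the table held 295 rows with such names, of which 121 reached 1 TPM in some library and stood for 45 members as parents. In 4 of them the level differed at least 3-fold between libraries with a highest value of at least 50 TPM, a choice made after the values were seen. Rpl34-ps1 was at 661 TPM in control library 4 and 451 TPM in overexpression library 2, against 122 to 208 TPM elsewhere. Its parent Rpl34 had its lowest values in these same libraries, 308 and 260 TPM, against 512 to 726 TPM elsewhere. The sum of the pair ran from 646 to 969 TPM over all libraries, 779 ± 123 TPM (SD, n = 6) in controls and 768 ± 100.2 TPM (SD, n = 5) under overexpression.
Rpl3-ps1 was at 343 and 388 TPM in control libraries 5 and 6 and at 443 and 371 TPM in overexpression libraries 1 and 3, and between 86.5 and 113 TPM in the rest. Rps19-ps6 was at 135 TPM in control library 5 and at 195 and 162 TPM in overexpression libraries 4 and 5, and between 16.5 and 33.5 TPM in the rest. Both patterns cut across the groups. Rpl3 ranged from 776 to 1230 TPM alone and from 917 to 1456 TPM with its copy. Rps19 ranged from 333 to 919 TPM alone and from 384 to 949 TPM with its copy, so adding Rps19-ps6 left most of its range in place. The fourth row, Rpl35a-ps2, ran from 16.3 to 59.4 TPM, and its parent Rpl35a from 140.3 to 325 TPM alone and from 179.7 to 350.02 TPM with the copy. Reads of a parent and its copy may be split between the rows. The part of read assignment in these patterns was not tested.

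**Figure D4:**
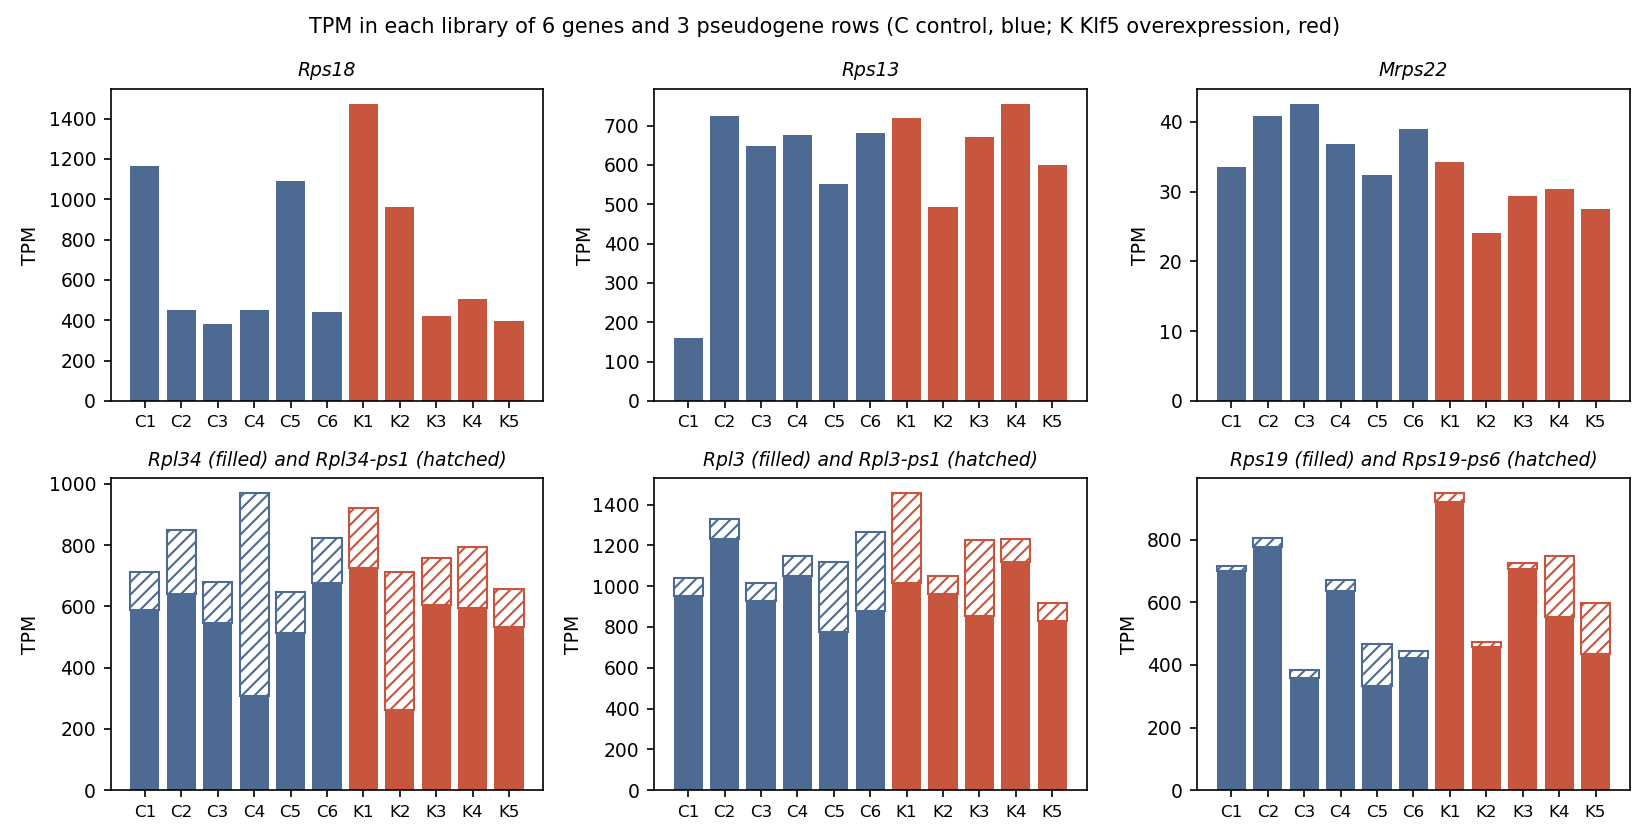
TPM (y axis) in each of 11 libraries (x axis, C control in blue and K Klf5 overexpression in red) of Rps18, Rps13, Mrps22, and of Rpl34, Rpl3 and Rps19 (filled) with a pseudogene row of each stacked on top (hatched). Rps18 is high in 4 libraries of both groups, Rps13 is low in C1 (160.5 TPM), and the hatched part is largest for Rpl34-ps1 in C4 (661 TPM).

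The proteins that belong to these ribosomes under other names had no call either. Rack1, a small-subunit scaffold protein, was at 766 ± 107 TPM (SD, n = 6) in controls and 746 ± 142 TPM (SD, n = 5) under overexpression, a difference of -0.05 ± 0.14. Fau, which encodes a small-subunit protein fused to a ubiquitin-like one, differed by -0.02 ± 0.12. The mitochondrial ones, Dap3, Ptcd3, Aurkaip1, Gadd45gip1 and Chchd1, lay at -0.24, -0.23, -0.30, -0.25 and 0.01, and the smallest adjusted limma p among them was 0.295, for Aurkaip1.

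The machinery that makes ribosomes showed no called gene either. Of 36 ribosome biogenesis genes, 25 lay above and 11 below 0, with a median of 0.09. Npm1, an abundant nucleolar chaperone, was at 554 ± 71.2 TPM (SD, n = 6) in controls and 467 ± 76.5 TPM (SD, n = 5) under overexpression, with an adjusted limma p of 0.489. Gar1, of the particles that pseudouridylate ribosomal RNA, was at 84.7 ± 14.2 and 71.0 ± 14.9 TPM. The 14 genes of RNA polymerase I and its factors, which transcribe ribosomal RNA, had a median of 0.03, with Taf1b lowest at -0.31 ± 0.17 and Cd3eap at -0.22 ± 0.16.
A list of 14 translation factors and other genes with TOP mRNAs had a median of -0.01, with Hnrnpa1 at -0.23 ± 0.14 and Nap1l1 at -0.15 ± 0.14. Whether their annotated starts hold the pyrimidine run was not tested. The 13 genes of mTORC1 and TOP regulation had a median of -0.01, with Mlst8 at -0.17 ± 0.15 and Larp1 at 0.14 ± 0.14. The 9 Myc factors, which drive ribosome production in many cells, had a median of 0.07. Mycl was at 22.3 ± 6.99 TPM (SD, n = 6) in controls and 14.9 ± 2.50 TPM (SD, n = 5) under overexpression, with an adjusted limma p of 0.287 that became 0.0442 without control library 1, where it was lowest (11.99 TPM). Mxd4, a Myc antagonist, was at 0.28 ± 0.18.

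Host genes of small nucleolar RNAs, whose spliced transcripts often begin with pyrimidines, had the highest median of these lists, 0.14 over 7 genes. Zfas1 ranged from 31.0 to 48.3 TPM in controls (median 39.6) and measured 57.7, 41.2, 46.0, 65.1 and 52.4 TPM under overexpression. All 5 overexpression values were above the control mean, with a difference of 0.42 ± 0.15 and an adjusted limma p of 0.17. It passed with rRNA-like, mitochondrial and haemoglobin rows left out (0.0485, limma) and with libraries centred on the cytosolic members (0.0475, limma). Snhg1 was at 26.7 ± 10.3 TPM (SD, n = 6) and 36.6 ± 10.1 TPM (SD, n = 5), a difference of 0.46 ± 0.23 with an adjusted limma p of 0.441.

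On the mitochondrial side, the 27 genes of mitochondrial translation and ribosome assembly had a median of -0.05, with 18 below 0. Mtif3, an initiation factor, was at 10.2 ± 3.31 TPM (SD, n = 6) in controls and 6.92 ± 1.72 TPM (SD, n = 5) under overexpression, with an adjusted limma p of 0.382. Mterf4, which takes part in assembly of the large subunit, was at 6.80 ± 1.98 and 9.27 ± 1.32 TPM, with an adjusted limma p of 0.417. The 13 protein-coding genes of the mitochondrial genome, which these ribosomes translate, stayed between -0.09 (mt-Co3) and 0.19 (mt-Nd2), with a median of -0.01.
The ribosomal RNAs of the mitochondrial ribosome, mt-Rnr1 and mt-Rnr2, differed by -0.45 ± 0.26 and -0.45 ± 0.32, with adjusted limma p-values of 0.568 and 0.681. Control libraries 1 and 2 were far above the rest, at 12893 and 14078 TPM of mt-Rnr1, and the other 9 libraries lay between 4639 and 8389 TPM. Of the rows resembling nuclear ribosomal RNA, AY036118 was called: it rose under overexpression, to 2302 ± 1132 TPM (SD, n = 5) against 460.4 ± 359.7 TPM (SD, n = 6) in controls, a difference of 2.45 ± 0.41 with an adjusted limma p of 0.0020, and control library 4 (1160 TPM) lay above overexpression library 2 (924 TPM). It was the only 1 of 4 such rows above 0, and their median was -0.25. Summed, the 4 rows held 156516 ± 52490 TPM (SD, n = 5) under overexpression and 184881 ± 36887 TPM (SD, n = 6) in controls.

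Cell markers were compared in the same libraries, and their part in the ribosomal protein values was not tested. Of 8 stem and progenitor markers, Vim rose by 0.53 ± 0.13, with an adjusted limma p of 0.0365, and Msi1 fell by 0.64 ± 0.17, with an adjusted limma p of 0.0433. Both calls were lost in each fit without 1 of the 6 control libraries, where the adjusted limma p ran from 0.0515 to 0.0832 for Vim and from 0.0606 to 0.097 for Msi1. Of all 8 stem and progenitor markers, 2 lay above and 6 below 0, with a median of -0.07 and a lowest difference of -0.87. Summed, these 8 ran from 4629 to 7738 TPM in controls and from 3633 to 5656 TPM under overexpression. Of 8 neuronal markers none was called and all 8 lay below 0, with a median of -0.40, Rbfox3 at -0.80 ± 0.26 and Gap43 at -0.53 ± 0.18. Their summed level was 340 to 487 TPM in controls and 304 to 396 TPM under overexpression. Among 7 mural and mesenchymal markers, 1 was tested, Acta2 (-0.46 ± 0.32), and their sum did not exceed 5.76 TPM.

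**Figure D5:**
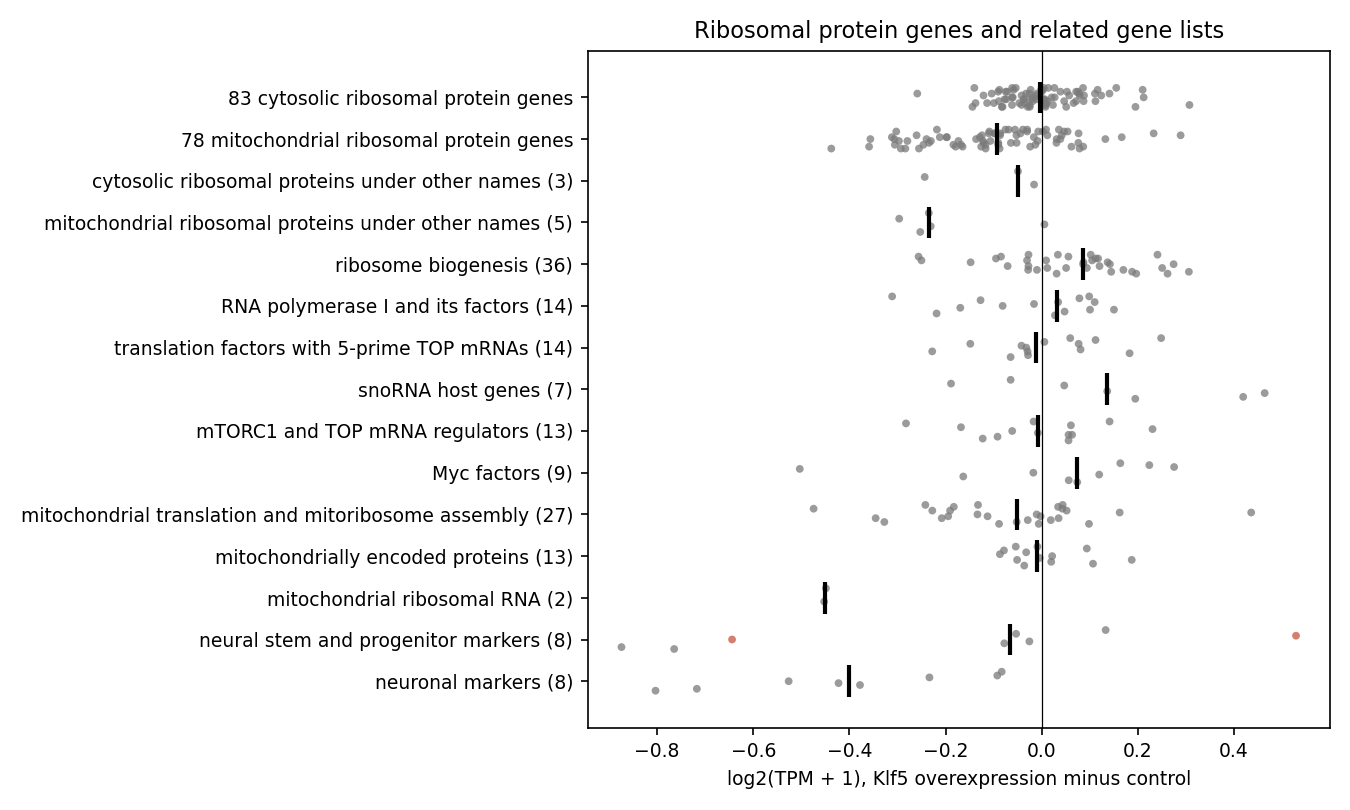
Difference in log2(TPM + 1) between Klf5 overexpression and control libraries (x axis) for the ribosomal protein genes and related lists (y axis, number of tested genes in brackets). Each point is a gene, black bars are medians and red points passed the threshold; only Vim and Msi1 of the markers are red, and the cytosolic and mitochondrial medians lie at -0.004 and -0.09.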

How the data were processed

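The deposited table holds TPM per gene, made by the authors, with 1 column for each of 6 control and 5 Klf5 overexpression libraries. The submitters' processing notes name the tools DESeq2, HISAT2, HTSeq and StringTie and the mouse build GRCm38.p5, with no versions or order. Per the labels' protocols, RNA was total RNA and 2 library kits were used. Which kit made which library, whether ribosomal RNA was removed and whether counting used strand was not stated there, so a read in overlapping genes may have gone to either: 70 of 161 members overlap another tested gene in the GENCODE annotation of GRCm38. TPM keeps no depth, so precision rests on the spread between libraries.

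Of 53453 rows, 53255 were matched to a symbol. The 13549 genes that reached 1 TPM in 5 or more libraries were tested as log2(TPM + 1) with limma 3.58.1 (R 4.3.3), two-sided, with a mean-dependent variance trend and Benjamini-Hochberg adjustment over all of them. For genes near 1 TPM this scale understates differences. Adjusted p-values in the text come from that fit. The script was tested on simulated data. Summaries used Python 3.11.15 and pandas 2.3.3. Coordinates, counted from 1, are those of RefSeq promoters on GRCm38.p6.

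The members and the 20 related lists were chosen with earlier results of these data known. Named members are, in each of 4 classes, the 2 with the highest and the 1 with the lowest level and the 2 with the smallest p, plus the paralogs; each other list adds its 2 genes with the smallest p and those called. For 1 gene that this rule names, no values are reported here. Other members named were picked with their values in view. Alternative settings were a filter of 5 TPM or none, a pseudocount of 0.1, trimmed-mean scaling (unweighted), quantile normalization, rescaling without rRNA-like, mitochondrial and haemoglobin rows or to the rows outside the members, centring on the cytosolic members, array weights, no variance trend, robust variances, the replicate number as a block, and each library left out.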

Additional observations from a re-analysis of the deposited data

Results flagged for a closer look

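In 13 of 322 groups of member values (4.04%) 1 library stood apart from the rest of its group by its gap relative to the group's range, and chance gives about 1 in 20. In control library 1, Rps13 was at 160.5 TPM (others 552 to 724) and Mrpl34 at 73.6 TPM (85.8 to 89.98). In control library 2, Mrps36 was at 37.5 TPM (18.7 to 24.3). In control library 3, Mrpl46 was at 21.9 TPM (29.0 to 32.6) and Mrps26 at 9.82 TPM (21.0 to 25.3). In control library 6, Mrpl58 was at 48.4 TPM (29.1 to 36.1) and Mrpl44 at 36.9 TPM (24.2 to 28.9).

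In overexpression library 1, Mrpl22 was at 59.7 TPM (others 38.8 to 43.5) and Mrps14 at 30.4 TPM (16.1 to 17.6). In overexpression library 2, Rpl37 was at 299 TPM (398 to 434), Rps25 at 511 TPM (313 to 359) and Mrps5 at 23.9 TPM (38.4 to 44.1). In overexpression library 3, Mrps16 was at 18.8 TPM (14.02 to 15.3).

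Outside the members 6 of 88 groups (6.82%) stood out in this way: Gadd45gip1 in overexpression library 1 (26.9 TPM), Nap1l1 in control library 2 (313 TPM), AY036118 in control library 4 (1160 TPM), Rpl34-ps1 in control library 4 (661 TPM) and overexpression library 2 (451 TPM), and Rps19-ps6 in control library 5 (135 TPM).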

How the results depend on the processing

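Counts of called cytosolic genes, of mitochondrial genes called higher and of Klf5 kept their side of the threshold under all 12 alternatives with all or blocked libraries and all 11 fits with 1 library left out. Mitochondrial genes called lower numbered 1 in place of 0 with trimmed-mean scaling, quantile normalization, rescaling without rRNA-like, mitochondrial and haemoglobin rows, and centring on the cytosolic members; the gene was Mrps22 each time. Among the related lists other than markers, paralogs, Diamond-Blackfan genes and rRNA-like rows, genes called higher numbered 1 in place of 0 (Zfas1) in the latter 2 settings, and called lower 0 to 1 with a library left out (Mycl, without control library 1). The median difference ran from -0.07 to 0.06 (cytosolic) and from -0.15 to -0.04 (mitochondrial) with a library left out. The calls of Vim and Msi1 were lost when any of 6 control libraries was left out. With overexpression libraries 1 and 2 both left out, a setting chosen after seeing the data, all genes called fell from 504 to 314 and members called stayed at 0.

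Same-numbered libraries 2 to 5 did not deviate together, with correlations across genes from -0.0398 to 0.0638, whereas the libraries numbered 1 correlated at 0.304. Of 10 libraries, 2 correlated best with their own number. With the replicate block, fitted on 10 libraries, all genes called numbered 420 with 0 members among them, the medians were 0.02 (cytosolic) and -0.08 (mitochondrial), and Klf5 differed by 5.42.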
